A study of Mus musculus with 12 samples.

Results

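The genes studied here are 10 genes of the MHC class I antigen presentation pathway: the heavy chains H2-K1 and H2-D1, the light chain B2m, the peptide loading genes Tap1, Tap2 and Tapbp, the immunoproteasome subunits Psmb8, Psmb9 and Psmb10, and the regulator Nlrc5. They were chosen by name among the 32288 rows of each count table, all 10 were present in every table, and all 10 passed the filter on low counts. RNA was sequenced from 12 tumors, each from a separate DBA/2 mouse, in 4 groups of 3 mice. P815 is a mouse mastocytoma line that grows in DBA/2 mice. P815-IFNG tumors grew from 1 clone of P815 cells with the light-switched transactivator GAVPO under the EF-1α promoter, a GAVPO-dependent cassette for Ifng and Cxcl10, and the reporters mRuby and Fluc. P815-M tumors, the control, grew from 1 clone that carries mRuby and Fluc alone. Mice of either line were kept for 6 days in a cycle with 12 h of blue light (light group) or without blue light (dark group), so the P815-M groups also received light, without the cytokine cassette. The mice were 8 to 10 weeks old and carried their tumor under the skin.

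Class I molecules display peptides from inside the cell to CD8+ T cells. The proteasome cuts proteins into peptides, the TAP1-TAP2 transporter moves them into the endoplasmic reticulum, and tapasin (Tapbp) holds empty class I molecules, made of a heavy chain and β2-microglobulin (B2m), beside the transporter until a peptide binds. Interferon gamma is known to raise most of these genes, among them the subunits Psmb8, Psmb9 and Psmb10, which take the places of the constitutive catalytic subunits Psmb5, Psmb6 and Psmb7, and Nlrc5, a transactivator of class I genes.

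Each tumor is a mixture of P815 cells and host cells, and in such bulk RNA fewer cells of a type and less RNA per cell cannot be told apart. The libraries were of 2 kinds. Replicate 3 of P815-IFNG light and of P815-IFNG dark, called the deep libraries below, held 41473500 and 42338096 counts, whereas the other 10 held between 2211234 and 2946792. The libraries also differed in the share of counts in features that the annotation types as antisense, which took 1.01% and 1.03% of the counts of the deep libraries and between 14.1% and 21.5% of those of the others. The library kit marks strand and HTSeq was run with its default setting. Whether the 10 libraries were counted on the strand opposite to that of the transcripts was not tested. If they were, their counts of any member would be reads of the minor strand, and their levels would not stand for the level of its mRNA. No P815-M library was deep, so the deep libraries are given apart throughout and had a term of their own in the model. Levels are given in CPM, which scales the counts of each library by its effective (TMM-corrected) size to a common total. In the 10 other libraries the members' counts ranged from 45 (Nlrc5, second P815-M dark replicate) to 5540 (H2-D1, first P815-IFNG light replicate).

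Most of the members lie in the MHC region of chromosome 17. Tap1 (17:34187553-34197225, forward strand, GRCm38), Psmb9 (17:34181987-34187764, reverse strand), Psmb8 (17:34197721-34201454) and Tap2 (17:34203527-34216321) are neighbours there, and Tapbp (17:33915899-33929292), H2-K1 (17:33996017-34000347) and H2-D1 (17:35262730-35267499) lie to either side. B2m is on chromosome 2 (122147686-122153083), and Psmb10 and Nlrc5 are on chromosome 8. RefSeq (GRCm38.p6) promoter windows of 300 bases were found for 8 of the 10 members, all but Tap2 and Nlrc5. Of these, 4 windows are shown because they carry what the members' promoters have in common or share outright. Capitals mark matches, on either strand, to an interferon regulatory factor element core (GAAANNGAA), a GAS element (TTCNNNGAA), a kappa B site (GGGATTCCC) and a CCAAT box (CCAAT, read as ATTGG on the other strand).
H2-K1, chr17:34000298-34000597, reverse strand: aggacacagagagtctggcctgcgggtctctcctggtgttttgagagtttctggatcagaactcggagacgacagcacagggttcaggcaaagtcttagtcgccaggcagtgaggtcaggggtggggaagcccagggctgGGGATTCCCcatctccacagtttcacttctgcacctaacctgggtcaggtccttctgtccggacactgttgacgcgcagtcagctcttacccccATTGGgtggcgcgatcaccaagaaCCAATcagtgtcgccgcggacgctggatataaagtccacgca
H2-D1, chr17:35262844-35263143, forward strand: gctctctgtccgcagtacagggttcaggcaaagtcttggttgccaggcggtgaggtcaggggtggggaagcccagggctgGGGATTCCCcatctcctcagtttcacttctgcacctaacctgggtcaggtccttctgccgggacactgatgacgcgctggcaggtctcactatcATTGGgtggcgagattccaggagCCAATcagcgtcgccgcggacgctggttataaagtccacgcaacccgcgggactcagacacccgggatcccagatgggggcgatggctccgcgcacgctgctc
B2m, chr2:122147437-122147736, forward strand: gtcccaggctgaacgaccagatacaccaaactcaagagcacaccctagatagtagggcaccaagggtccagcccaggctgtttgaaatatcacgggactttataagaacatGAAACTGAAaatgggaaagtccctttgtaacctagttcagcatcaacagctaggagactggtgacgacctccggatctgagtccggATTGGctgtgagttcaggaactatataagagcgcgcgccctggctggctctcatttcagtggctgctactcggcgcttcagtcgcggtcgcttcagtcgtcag
Tap1, chr17:34187306-34187605, forward strand: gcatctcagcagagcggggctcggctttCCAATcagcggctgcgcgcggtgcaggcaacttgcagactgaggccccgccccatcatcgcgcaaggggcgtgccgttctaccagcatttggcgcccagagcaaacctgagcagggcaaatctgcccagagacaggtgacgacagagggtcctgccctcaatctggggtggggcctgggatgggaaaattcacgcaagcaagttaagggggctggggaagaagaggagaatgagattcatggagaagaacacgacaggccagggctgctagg
The H2-K1 and H2-D1 windows share an identical run of 47 bases that includes the kappa B match, which lies 110 bases before the start site of H2-K1 and 170 bases before that of H2-D1. Both windows also hold a pair of CCAAT boxes. The Tap1 window shares 275 bases with that of Psmb9, whose transcription runs the other way, and its 1 CCAAT box is the same one in both. The B2m window holds the only match to GAAANNGAA among the 8 members (GAAACTGAA, 139 bases before the start). That pattern fixes the order of its parts, so tttcacttc, with the order reversed, was not counted. The H2-K1 and H2-D1 windows both hold tttcacttc, so they are not shown to lack such an element. The Psmb8 window holds the single GAS match (TTCCCAGAA, 97 bases before the start). Over 27025 mouse promoter windows of the same length, the interferon regulatory factor core was found in 8.57%, the GAS element in 8.47%, the CCAAT box in 37.9% and the kappa B site in 0.37%. The CCAAT box was found in 6 of the 8 members and the kappa B site in 2. The cyclic AMP element TGACGTCA, found in 1.88% of all windows, was in none of the 8. Only the spellings given were searched, so variants of these elements, the kappa B site among them, were not counted. A match describes letters and not binding, and nothing follows from its absence in these windows.

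Under blue light the level of all 10 members was higher than in the dark, in both tumor lines, but by a log2 fold change under 1 and in no case past the test. A call required an adjusted p no larger than 0.05 together with a log2 fold change of 1 or more in either direction (quasi-likelihood test of edgeR, Benjamini-Hochberg over 18804 genes). In P815-IFNG tumors 0 of the 10 members and 0.0106% of all genes tested were called. There 8 members were higher at an unadjusted p under 0.05, against 4.14% of all genes (2 without light replicate 1 or dark replicate 2, 4 without either deep library, and 0 in a fit with no term for the deep libraries), and all 10 had a log2 fold change above 0, against 46.7% of all genes. The median log2 fold change of the members was 0.55 and that of all genes -0.03. In P815-M tumors 0 members and 1.03% of all genes were called, 3 members (7.47% of all genes; 0 with no such term) were higher at an unadjusted p under 0.05, and all 10 (51.1% of all genes) had a log2 fold change above 0, with a median of 0.48 against 0.01. Over the mean of both lines 0 members and 0.792% of all genes were called, 9 members (8.34% of all genes; 2 with no such term) were higher at an unadjusted p under 0.05, and all 10 (49.8% of all genes) were above 0, with a median of 0.53. The smallest adjusted p of a member in that comparison was 0.0520 (H2-D1, edgeR). The P815-IFNG and P815-M light effects were measured on separate tumors.

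**Figure D1:**
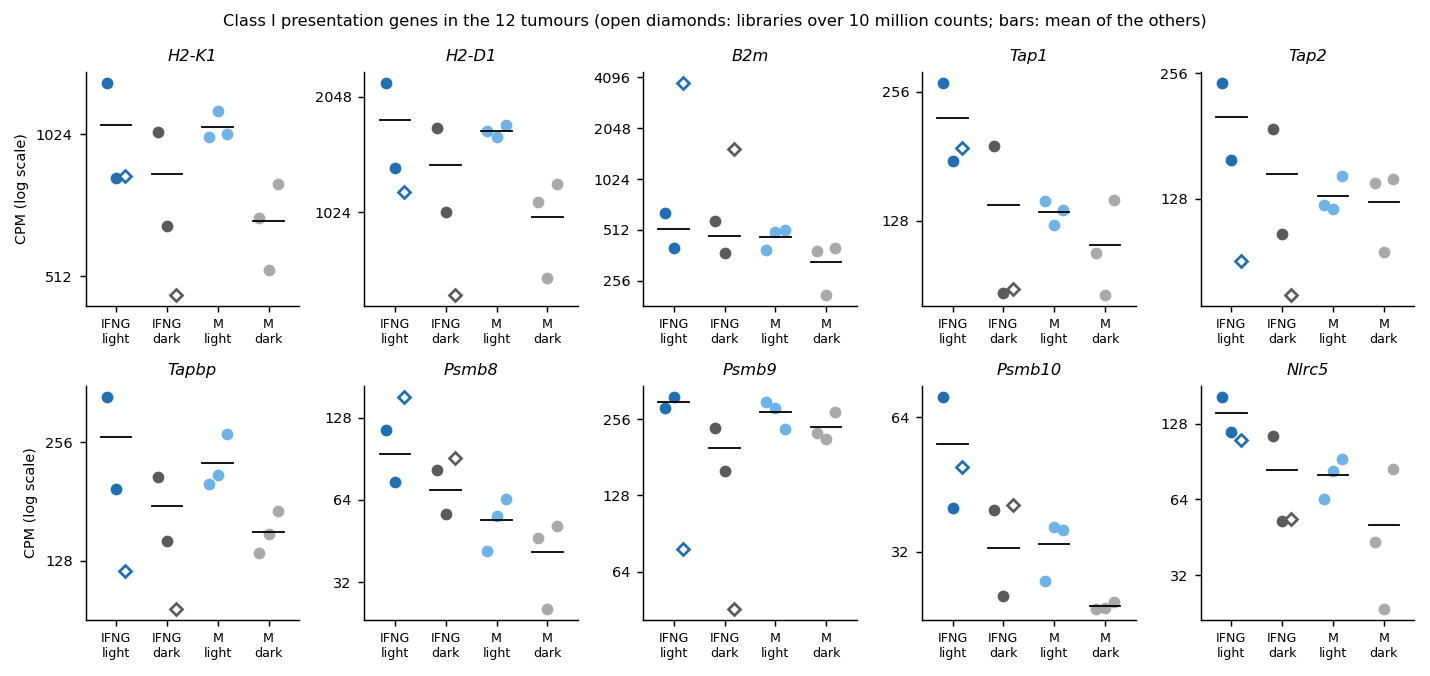
Levels of the 10 class I presentation genes in CPM (log axis, 1 panel per gene) in the 12 tumors, with 3 per group of line and light; filled circles are the 10 libraries with fewer counts, open diamonds the 2 deep libraries, and bars the arithmetic mean of the circles. The dark tumors reach lower than the light tumors of the same line for most genes, the first P815-IFNG light replicate is highest among the circles for 9 of the 10, and the diamonds stand far above the circles for B2m and far below them for Psmb9.

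Per kilobase of exon, H2-D1, B2m and H2-K1 were the most abundant members in the 10 libraries outside the deep pair, with medians of 570, 466 and 312 CPM per kilobase, against 69.6 for Psmb9 and 9.84 for Nlrc5, the lowest. The 2 deep libraries held 241 and 448 for H2-D1, 1800 and 4430 for B2m, 159 and 285 for H2-K1 and 12.4 and 21.4 for Psmb9 on the same scale, so that the order of the members differed between the kinds of library, and the doubt about strand bears on it. H2-K1, which encodes the K heavy chain, had 1320, 827 and 836 CPM in the 3 P815-IFNG light tumors (the last is the deep library, as in every list below) and 1035, 653 and 467 CPM in the P815-IFNG dark tumors. In P815-M tumors it had 1009, 1147 and 1025 CPM in light and 679, 528 and 803 CPM in the dark. Every P815-M light tumor lay above every P815-M dark tumor, whereas in P815-IFNG dark replicate 1 lay above light replicates 2 and 3. The log2 fold change between light and dark was 0.51 (standard error 0.22) in P815-IFNG and 0.66 (0.22) in P815-M. H2-D1, the D heavy chain, had 2228, 1331 and 1155 CPM in P815-IFNG light, 1692, 1025 and 622 in P815-IFNG dark, 1671, 1610 and 1731 in P815-M light and 1086, 691 and 1210 in P815-M dark. Again the P815-M groups stood apart and the P815-IFNG groups overlapped. Its log2 fold change was 0.56 (0.24) in P815-IFNG and 0.75 (0.24) in P815-M. Heavy chains are near-identical paralogs that differ between strains, and DBA/2 and P815 carry the d haplotype whereas the mm10 reference is of C57BL/6, so how reads were shared among H2-K1, H2-D1 and their relatives is uncertain.

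B2m, the light chain of every class I molecule, had 641, 403 and 3807 CPM in P815-IFNG light and 575, 374 and 1545 CPM in P815-IFNG dark. P815-M tumors had 389, 498 and 509 CPM in light and 383, 211 and 400 CPM in the dark. The deep libraries held more B2m than any other library, and the term for them was 2.32 on the log2 scale. Within each kind of library the mean was higher in light, but in neither line did the groups stand apart. The log2 fold change was 0.53 (standard error 0.27) in P815-IFNG and 0.49 (0.27) in P815-M. Between the deep libraries the log2 difference was 1.30, and in the other P815-IFNG libraries it was 0.13, the smallest among the members there.

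Of the loading genes, Tap1, one chain of the peptide transporter, had 269, 177 and 189 CPM in P815-IFNG light and 192, 86.8 and 88.8 CPM in P815-IFNG dark. In P815-M tumors Tap1 had 142, 126 and 136 CPM in light and 108, 86.0 and 144 CPM in the dark. The P815-IFNG light tumors exceeded all P815-M tumors, and only the first P815-IFNG dark replicate came up to their range. The log2 fold change was 0.82 (standard error 0.24, unadjusted p = 0.00307, adjusted p = 0.294, edgeR) in P815-IFNG and 0.25 (0.25) in P815-M. Without replicate 1 of P815-IFNG dark, Tap1 was called in P815-IFNG, at 1.24 (adjusted p = 0.0170, edgeR). Tap2, the other chain, had 243, 159 and 90.6 CPM in P815-IFNG light and 188, 105 and 75.3 CPM in P815-IFNG dark, and between 95.3 and 145 CPM in all P815-M tumors. It was the member with the smallest light effect in either line, with log2 fold changes of 0.39 (0.22) and 0.04 (0.22). Tapbp, which encodes tapasin, had 335, 195 and 121 CPM in P815-IFNG light and 210, 144 and 96.6 CPM in P815-IFNG dark. In P815-M the levels were 200, 211 and 269 CPM in light and 134, 150 and 172 CPM in the dark. As for the heavy chains, the P815-M groups stood apart and those of P815-IFNG overlapped, with log2 fold changes of 0.58 (0.21) and 0.50 (0.21).

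Psmb8, the immunoproteasome subunit that replaces Psmb5, had 115, 74.2 and 153 CPM in P815-IFNG light and 82.6, 57.0 and 91.2 CPM in P815-IFNG dark. P815-M levels were 41.5, 56.0 and 64.4 CPM in light and 46.5, 25.5 and 51.4 CPM in the dark. Light and dark overlapped in both lines, with log2 fold changes of 0.55 (standard error 0.23) and 0.38 (0.25). Psmb9, which replaces Psmb6, had 284, 314 and 78.4 CPM in P815-IFNG light and 236, 160 and 45.5 CPM in P815-IFNG dark. In P815-M tumors it had 300, 284 and 234 CPM in light and 226, 214 and 274 CPM in the dark. The deep libraries held less Psmb9 than any other library (a term of -2.02 on the log2 scale), and within each kind of P815-IFNG library light lay above dark. Its log2 fold change was 0.66 (0.18, unadjusted p = 0.00138, adjusted p = 0.203, edgeR) in P815-IFNG and 0.19 (0.18) in P815-M. Psmb10, which replaces Psmb7, had 71.2, 40 and 49.4 CPM in P815-IFNG light and 39.7, 25.5 and 40.7 CPM in P815-IFNG dark. P815-M tumors held 27.5, 36.4 and 35.8 CPM in light and 23.8, 24 and 24.7 CPM in the dark. Within each line and kind of library, every light tumor lay above every dark tumor, which held for no other member. The log2 fold change of Psmb10 was 0.59 (0.22) in P815-IFNG and 0.46 (0.25) in P815-M.

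Nlrc5, the transactivator of the class I heavy chain, B2m, Tap1 and immunoproteasome genes, had 164, 118 and 111 CPM in P815-IFNG light and 115, 52.3 and 53.7 CPM in P815-IFNG dark. In the P815-M line it had 64.4, 82.8 and 92.6 CPM in light and 43.3, 23.4 and 84.4 CPM in the dark. Replicate 3 of P815-M dark lay within the P815-M light range, and the other P815-M dark tumors lay below it. Replicate 1 of P815-IFNG dark lay above the deep light library alone. Within each kind of P815-IFNG library light lay above dark. Nlrc5 had the largest light effect of the members in P815-IFNG, where it reached 0.86 on the log2 scale (standard error 0.31), and 0.66 (0.33) in P815-M. The P815-M value was 0.33 without dark replicate 2 and 1.24 without dark replicate 3. Without replicate 3 of P815-M dark, Nlrc5 was called over both lines, at a log2 fold change of 1.05 (adjusted p = 0.00956, edgeR).

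Taken by groups, no member had every P815-IFNG light library above every P815-IFNG dark library (0 of 10, against 0.994% of all genes). That comparison sets the deep libraries together with the others, whose levels differ. Within each kind of P815-IFNG library, light lay above dark for Psmb9, Psmb10 and Nlrc5 and for no other member. The share of all genes for which this held is not given. In P815-M tumors, none of them deep, every light library lay above every dark library for 4 members. These were H2-K1, H2-D1, Tapbp and Psmb10, against 10.1% of all genes. With 3 tumors against 3 the smallest two-sided p of an exact permutation test is 0.1. Light and dark were therefore also compared by an exact permutation of log2(CPM + 1) within line and kind of library, which has 240 arrangements and a smallest two-sided p of 0.00833. By this permutation test 6 of the 10 members were higher in light at p of at most 0.05, against 6.89% of all genes. Psmb10 had p = 0.00833, H2-K1, H2-D1, Tapbp and Psmb9 each had p = 0.0167 and Nlrc5 had p = 0.0333 (exact permutation). Tap1 (p = 0.0667), Psmb8 (p = 0.0750), B2m (p = 0.0917) and Tap2 (p = 0.250) missed the threshold in the same exact permutation test. Adjusted over all genes, the permutation p of the members lay between 0.230 and 0.619. The deep light library lay above the deep dark library for all 10 members. With the 10 other libraries alone, the exact permutation p at or below 0.05 stayed with 5 members and that of Nlrc5 was 0.0667.

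**Figure D2:**
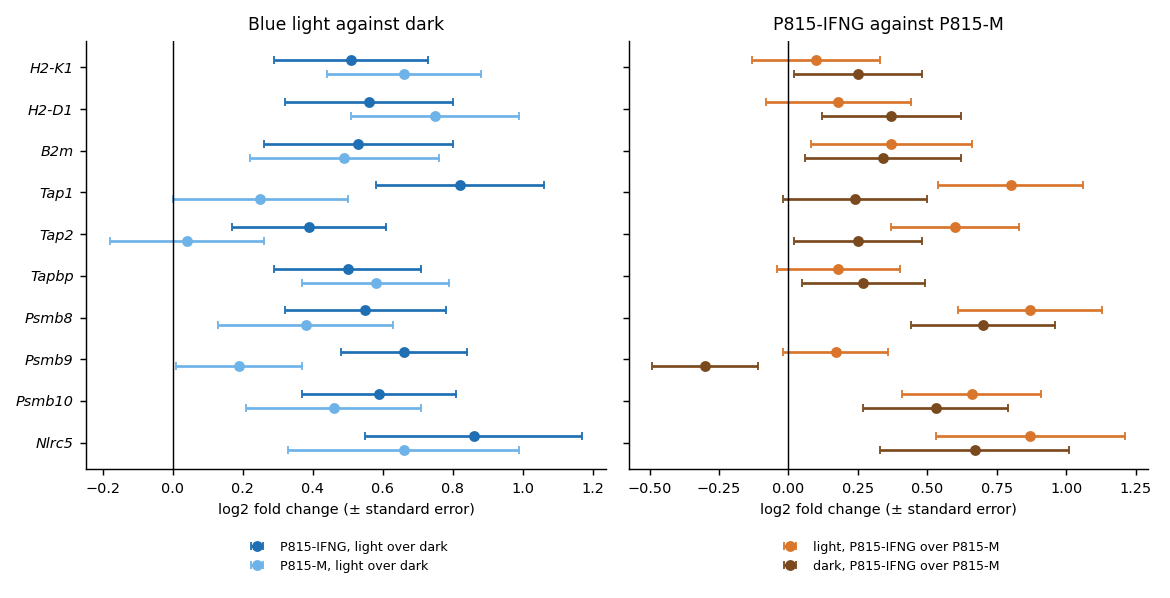
Log2 fold changes with standard errors of the 10 members (rows) between light and dark in each line (left panel) and between P815-IFNG and P815-M in light and in the dark (right panel), from the fit of all 12 libraries with a term for the deep libraries. Light effects lie between 0.04 and 0.86, and the only value below 0 is that of Psmb9 between the lines in the dark, at -0.30.

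The immunoproteasome subunits were set against the constitutive subunits they replace, as ratios of counts within a library, a comparison that was chosen after the values were seen. Psmb5 had lower levels in light, at a log2 fold change of -0.44 over both lines (standard error 0.13, adjusted p = 0.0864, edgeR) and p = 0.0167 in the exact permutation within line and kind of library. Psmb6 had -0.31 (0.16) and Psmb7 -0.15 (0.13). The Psmb8 to Psmb5 ratio was 2.67, 1.43 and 7.05 in P815-IFNG light and 1.20, 1.17 and 2.65 in P815-IFNG dark, and 0.941, 1.15 and 1.40 in P815-M light and 0.763, 0.395 and 0.833 in P815-M dark. Within each line and kind of library every light value exceeded every dark value, by 0.91 on the log2 scale (p = 0.00833, exact permutation). The Psmb10 to Psmb7 ratio was 1.02, 0.443 and 0.247 in P815-IFNG light against 0.500, 0.290 and 0.197 in the dark, and 0.596, 0.576 and 0.537 in P815-M light against 0.311, 0.407 and 0.341 in the dark. It was 0.68 higher in light (p = 0.0167, exact permutation), and the groups stood apart in P815-M. The Psmb9 to Psmb6 ratio was higher in light by 0.75 (p = 0.0333, exact permutation), from 7.16 to 14.8 in P815-M light against 6.57 to 10.2 in P815-M dark, and 12.0 and 11.9 against 6.72 and 4.76 in the P815-IFNG libraries other than the deep pair. In the deep libraries it was 1.66 in light and 0.729 in the dark. Without the deep pair the 3 differences were 0.81, 0.75 and 0.66, in the order above, with p = 0.0167, 0.0333 and 0.0667 (exact permutation). A level of one gene cannot be read against another from such ratios, since the genes differ in length and in the reads of the other strand.

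**Figure D3:**
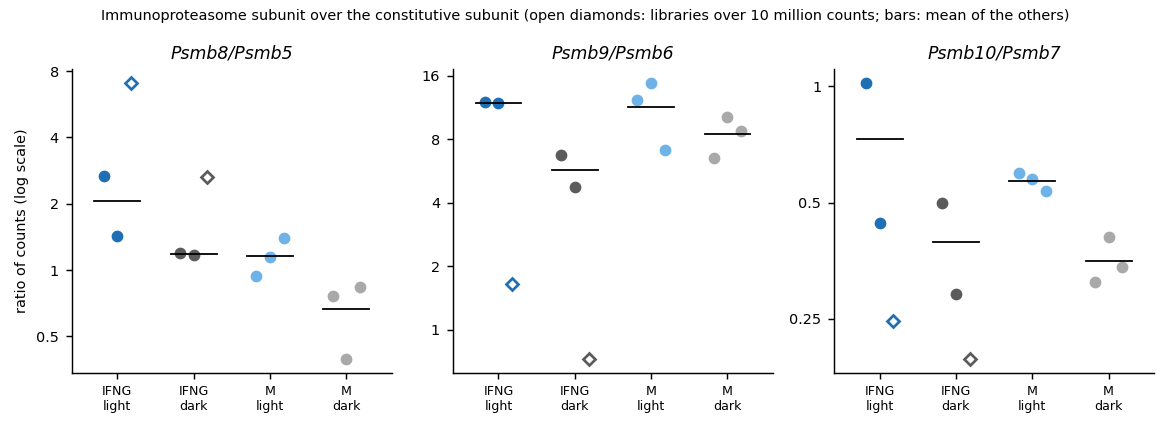
Ratio of the counts of each immunoproteasome subunit to those of the constitutive subunit that it replaces (log axis) in the 12 tumors; filled circles are the 10 libraries with fewer counts, open diamonds the deep libraries and bars the arithmetic mean of the circles. The light tumors lie above the dark tumors of the same line and kind of library for Psmb8/Psmb5, and overlap with them in P815-M for Psmb9/Psmb6.

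Between the tumor lines the size of the difference varied from member to member, and the members were not tested against each other. In light 0 of the 10 members and 0.436% of all genes were called, 5 members (5.27% of all genes; 2 with no term for the deep libraries and 1 without P815-IFNG light replicate 1) were higher in P815-IFNG at an unadjusted p under 0.05, and all 10 (51.2% of all genes) had a log2 fold change above 0, with a median of 0.49. Those 5 were Nlrc5 (0.87, standard error 0.34), Psmb8 (0.87, 0.26), Tap1 (0.80, 0.26), Psmb10 (0.66, 0.25) and Tap2 (0.60, 0.23). H2-K1 (0.10, 0.23), H2-D1 (0.18, 0.26), Tapbp (0.18, 0.22) and Psmb9 (0.17, 0.19) differed by less than their standard error, and B2m by 0.37 (0.29). The B2m value was 0.17 in the 10 libraries alone, between 0.19 and 0.73 with 1 library left out, lowest without P815-IFNG dark replicate 3 and highest without light replicate 2, and 1.80 with no term for the deep libraries. Every P815-IFNG light library lay above every P815-M light library for 4 members, Tap1, Psmb8, Psmb10 and Nlrc5, against 9.23% of all genes. The log2 fold changes of H2-K1, H2-D1 and Tapbp were -0.07, -0.02 and -0.15 when replicate 1 of P815-IFNG light was left out, so their direction rested on that tumor. In the fit without a term for the deep libraries, H2-K1, H2-D1, Tapbp and Psmb9 were lower in P815-IFNG.

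In the dark 0 members and 1.54% of all genes were called between the lines, and 1 member, Psmb8 (log2 fold change 0.70, standard error 0.26, adjusted p = 0.165, edgeR), was higher in P815-IFNG at an unadjusted p under 0.05, against 9.24% of all genes. A log2 fold change above 0 was found for 9 members and 55.0% of all genes, with a median of 0.30. Without replicate 1 of P815-IFNG dark it was found for 5 members, with a median of -0.02, so the direction of the group rested on that tumor, and with no term for the deep libraries for 7, with a median of 0.14. In the design used, Psmb9 had -0.30 (0.19). Psmb8 and Psmb10 were the 2 members with every P815-IFNG dark library above every P815-M dark library, against 10.9% of all genes. These line differences compare 2 clones, so the cassette and the clone cannot be told apart. The difference between the lines in the light effect was tested as an interaction, in which 0 members and 0.016% of all genes were called, and 0 members and 1.86% of all genes were higher at an unadjusted p under 0.05. It was 0.57 (standard error 0.35) for Tap1 and 0.47 (0.25) for Psmb9, the largest among the members, and -0.19 (0.34) for H2-D1, the lowest, and the smallest adjusted p of a member was 0.880 (edgeR). A light effect that differs between the lines was thus not detectable for these genes with 3 tumors per group.

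The members varied together from tumor to tumor. Over the 10 libraries outside the deep pair, the 45 pairs of members had a median Pearson r of 0.80 (range 0.27 to 0.98) in log2 CPM, as a description of 10 libraries that share the light and line groups. No such median is given for other genes, so 0.80 is not shown to be particular to the members. The highest r was that of H2-K1 with H2-D1, whose sharing of reads is uncertain. Psmb9 was least like the rest, with a median r of 0.51. The mean of the members' log2 CPM was 8.37 and 7.78 in P815-IFNG light, 7.92 and 7.18 in P815-IFNG dark, 7.55, 7.69 and 7.77 in P815-M light and 7.24, 6.80 and 7.51 in P815-M dark. It was highest in the first P815-IFNG light replicate and lowest in the second P815-M dark replicate, and the spread between the P815-IFNG tumors of 1 group was as wide as the difference between their groups. Among 7382 genes with a mean of at least 20 CPM, those whose log2 CPM was most like that mean over the 10 libraries were the class I genes H2-Q6 (r = 0.987) and H2-Q4 (0.983), the guanylate-binding protein gene Gbp9 (0.976), the interferon regulatory factor gene Irf1 (0.969) and the immunity-related GTPase gene Irgm1 (0.968).

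The rest of the class I pathway was read from 4 lists of 75 genes. The other heavy chains, including the H2-Q, H2-T and H2-M genes, had 16 of 20 genes tested. Over both lines 11 of the 16 were higher in light at an unadjusted p under 0.05 and 0 lower (8.34% and 7.43% of all genes), with a median log2 fold change of 0.60, and none was called, since none reached both thresholds. H2-Q4 (0.79, standard error 0.18, adjusted p = 0.0245), H2-T23 (0.86, 0.22, adjusted p = 0.0425), the mouse gene of the nonclassical molecule Qa-1, and H2-T22 (0.57, 0.12, adjusted p = 0.0137) passed the adjusted p of edgeR alone. None of the 3 did without P815-IFNG light replicate 1, in the 10 libraries alone, or with no term for the deep libraries. With 1 library left out, H2-T23 passed only without P815-IFNG light replicate 2, P815-IFNG dark replicate 1 or P815-M dark replicate 3. It also missed with the filterByExpr filter. H2-T22 missed after ComBat-seq batch adjustment, H2-Q4 without either deep library, and both without P815-M light replicate 2. H2-T23 had 310, 131 and 123 CPM in P815-IFNG light, 181, 94.2 and 55.1 in P815-IFNG dark, 162, 171 and 190 in P815-M light and 99.1, 51.6 and 132 in P815-M dark. Its P815-M groups stood apart and its P815-IFNG groups overlapped. By line, 10 of the 16 were higher in P815-IFNG light at an unadjusted p under 0.05 (4.14% of all genes) and 5 of the 16 in P815-M light (7.47% of all genes). Between the lines, 4 were higher in P815-IFNG in light (5.27% of all genes) and 1 in the dark (9.24% of all genes). Exons of the antisense-annotated Gm11131 cover 496 bases of H2-Q4 and those of A930015D03Rik 1003 bases of H2-T22.

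Of 15 genes for folding, loading and peptide trimming, 3 were higher and 3 lower in light over both lines at an unadjusted p under 0.05 (8.34% and 7.43% of all genes), with a median of -0.11. Erap1, the aminopeptidase that trims peptides in the endoplasmic reticulum, had 242, 234 and 92.2 CPM in P815-IFNG light and 141, 165 and 68.6 in P815-IFNG dark, and 304, 281 and 250 in P815-M light and 125, 181 and 160 in P815-M dark. Within each kind of library every light tumor lay above every dark tumor of its line. Its log2 fold change was 0.84 in P815-M (standard error 0.17, adjusted p = 0.0167, edgeR) and 0.70 over both lines (0.12, adjusted p = 0.00396), below the fold required for a call, and neither passed with no term for the deep libraries. The P815-M value also missed the adjusted p after ComBat-seq batch adjustment. It missed it too without light replicate 1 or 2, or dark replicate 1 or 3, of that line. Erap1 shares 834 exon bases with Cast on the other strand. Of 21 other proteasome genes, 3 had a log2 fold change above 0 in light over both lines, with a median of -0.17, 2 were higher and 6 lower at an unadjusted p under 0.05 (against the same shares of all genes), and none was called. The higher ones included Psme2, a subunit of the interferon-inducible activator PA28 (0.41, standard error 0.14), and the lower ones Psma5 (-0.49, 0.14) and Psmb5.

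Of 19 regulators of class I transcription, 1 was called over both lines, Irf1, which rose in light by 1.18 on the log2 scale (standard error 0.24, adjusted p = 0.0129, edgeR). The call was lost without replicate 1 of P815-IFNG light (0.96, adjusted p = 0.0789), in the 10 libraries alone (1.11, adjusted p = 0.0791) and with no term for the deep libraries (1.16, adjusted p = 1.0, edgeR). It had 230, 92.2 and 72.5 CPM in P815-IFNG light, 91.2, 41.9 and 24.1 in P815-IFNG dark, 93.4, 78.5 and 73.8 in P815-M light and 42.5, 20.3 and 61.3 in P815-M dark. Within each kind of library every light tumor lay above every dark tumor of its line. Irf8 had a log2 fold change of 0.81 (0.27) over both lines. Between the lines, Ifngr1, a chain of the interferon gamma receptor, was called in the dark, where it was higher in P815-IFNG by a log2 fold change of 1.23 (0.24, adjusted p = 0.00883, edgeR), with 54.3, 43.6 and 97.9 CPM against 23.4, 15.1 and 21.4 CPM. This call was lost without replicate 1 of P815-IFNG dark (1.08, adjusted p = 0.0513) and with no term for the deep libraries (1.71, adjusted p = 0.604, edgeR). Socs1, the feedback inhibitor of the receptor, had a log2 fold change of 1.00 (0.24, adjusted p = 0.0604, edgeR) between the lines in light. The row of the Ifng symbol had 14.9, 2.0 and 1.8 CPM in P815-IFNG light and at most 2.1 CPM in every other tumor, and the tumor with the most Ifng was also the one with the highest mean of the members. The cassette has a row of its own in the tables, with 4.42, 2.93 and 5.28 CPM in P815-IFNG light and 2.79, 2.01 and 2.81 CPM in P815-IFNG dark, from as few as 6 counts outside the deep pair, and no count in P815-M tumors but 2 in dark replicate 1. How reads that match both rows were counted is not given in the sources used here, so neither row alone may measure the Ifng made from the cassette.

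**Figure D4:**
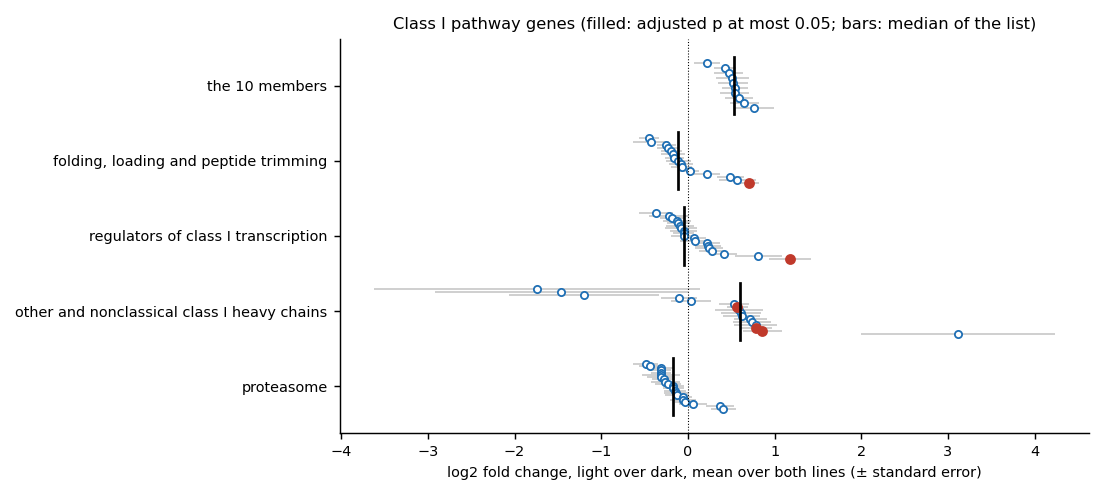
Log2 fold changes with standard errors between light and dark over both lines for the 10 members and the tested genes of the 4 other class I pathway lists (rows of points, 1 point per gene), with the median of each list as a bar. The members and the other heavy chains are centered at 0.53 and 0.60, the folding genes, regulators and proteasome genes at -0.11, -0.04 and -0.17, and filled points have an adjusted p of at most 0.05.

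Some members share exon bases with a gene on the other strand, whose reads cannot be told apart from theirs unless the counting used the strand of the library. Tap1 and Psmb9 share 212 exon bases with each other. Gm20496, annotated as antisense, covers 498 exon bases of Psmb8 (14.7%) and 165 of Tap2, Gm15821 covers 533 of Tap2 (14.1%), Gm19412 covers 904 of Tapbp (24.9%) and 9330175E14Rik covers 78 of Nlrc5. H2-K1, H2-D1, B2m and Psmb10 share none, but the doubt about the strand of the 10 libraries covers their counts as well. In the deep libraries these partners were low, with 46.8 and 68.3 CPM for Gm20496 and 12.7 and 13.7 CPM for Gm19412. In the other libraries Gm20496 had between 983 and 2430 CPM and Gm19412 between 672 and 1930 CPM, more than Psmb8, Tap2 or Tapbp in the same libraries. The rows of these partners were higher in light as well. If the 10 libraries were counted on the opposite strand, these rows would hold reads of the members' own transcripts. The differences below are therefore not shown to be those of separate transcripts, which was not tested. Gm19412 was called in P815-M at a log2 fold change of 1.06 (with standard error 0.20, adjusted p = 0.0109, edgeR), and 9330175E14Rik was called in P815-M (1.27, 0.28, adjusted p = 0.0257) and over both lines (1.16, 0.19, adjusted p = 0.00337). Both P815-M calls were lost without light replicate 1 or dark replicate 1 of that line, and that of 9330175E14Rik also without light replicate 2 or dark replicate 2. Over both lines 9330175E14Rik fell just short of the required fold without either deep library. Over both lines Gm20496 had 0.77 (0.13, adjusted p = 0.00438) and Gm15821 0.63 (0.14, adjusted p = 0.0245, edgeR). With no term for the deep libraries none of these 5 differences passed the adjusted p. Those of Gm19412 in P815-M and of Gm15821 over both lines were also lost after ComBat-seq adjustment. The Gm15821 difference was lost too without P815-IFNG light replicate 1 or dark replicate 2. It was likewise lost without P815-M light replicate 1, light replicate 2 or dark replicate 1. Whether the counts of the 2 kinds of library stand for the same strand was not tested. The fitted term of the deep libraries was -1.05 for Tap2, -1.0 for Tapbp, -0.87 for H2-D1, -0.60 for H2-K1 and between -0.49 and 0.54 for Psmb8, Nlrc5, Tap1 and Psmb10 (log2 scale).

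Summed levels of host cell markers are given by group as a description, with no test. The summed level of 13 macrophage and monocyte markers, cells that also express class I genes, was 2010 to 2380 CPM in P815-M light and 1210 to 1360 CPM in P815-M dark. In P815-IFNG it was 2480, 1800 and 1000 CPM in light and 2270, 2800 and 811 CPM in the dark. All 13 had a count in every group. The sum of 8 neutrophil markers was lower in P815-M light (38.4 to 49.6 CPM) than in P815-M dark (60.9 CPM in each tumor), and overlapped between light and dark in P815-IFNG. Of these 8, S100a8, Ly6g and Ngp were at 0 in P815-M light and S100a9 and Ly6g in P815-M dark. Ngp was also at 0 in P815-IFNG dark. The P815-M sums thus rest on the remaining markers of the list. In P815-IFNG the 8 skeletal muscle markers summed to 129, 121 and 143 CPM in light and 549, 148 and 219 CPM in the dark, so that every light tumor lay below every dark one. The 7 endothelial markers summed there to 45.4, 42.9 and 32.1 CPM in light and 101, 138 and 44.9 CPM in the dark, lower in light within each kind of library. In P815-M both lists overlapped between light and dark, as did the 8 fibroblast markers, which summed to 5020 to 6390 CPM. In P815-IFNG the fibroblast sum was 5180, 6720 and 4180 CPM in light and 6400, 13300 and 4950 CPM in the dark. The sum of 14 mast cell markers was 2110 to 2150 CPM in P815-M light and 2280 to 2890 CPM in P815-M dark. The P815-M light tumors thus had the higher macrophage and monocyte sum and the lower mast cell sum. In P815-IFNG the mast cell sum was 2020, 2030 and 10300 CPM in light and 2070, 1930 and 8020 CPM in the dark, so the list as a whole had counts in every group. Among the 14, Fcer1a was at 0 in both dark groups and Ms4a2 in P815-M light. The 11 T cell markers summed to 11.2 to 45.6 CPM, the 7 NK cell markers to 1.59 to 19.2 CPM the 7 B and plasma cell markers to 0.536 to 9.37 CPM and the 10 dendritic cell markers to 36.1 to 115 CPM over the 4 groups, with overlapping ranges. The part of host cells in the members' levels was not tested.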

How the data were processed

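RNA was sequenced from 12 single tumors. The deposited values are read counts by gene symbol, which the authors obtained with STAR 2.7.9a and HTSeq 0.13.5 with default parameters on mm10 (versions from the submitters' processing notes) from TruSeq Stranded libraries, before any batch adjustment. Mitochondrial rows (13) were dropped here, as were genes under 10 counts in total, so that 18804 genes were tested, after TMM scaling, with edgeR 4.0.16 in R 4.3.3 (quasi-likelihood test, 4 groups and a term for the libraries with over 10000000 counts in 1 fit, Benjamini-Hochberg adjustment). The p-values measure the spread between tumors, 3 per group. Alternatives were DESeq2 1.42.0, its size factors, ComBat-seq of sva 3.50.0, other filters, no term, the replicate number as a block, subsets of libraries and each library left out. Exact permutation tests were two-sided. Exon positions came from GENCODE M21 and promoters from RefSeq, both by symbol. The code was tested on simulated data. The members and lists, and the tests, were chosen with earlier results of these data known. Named genes are the members, called genes of the pathway lists and the largest changes in them at an unadjusted p under 0.05 and a mean of at least 5 CPM, and the 5 genes most alike. H2-T22, Psme2, the constitutive subunits and the genes of the other strand were added after values were seen. The authors' ComBat-seq values were not used here.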

Additional observations from a re-analysis of the deposited data

How the results depend on the processing

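All 10 members had a log2 fold change above 0 between light and dark in P815-IFNG, and over both lines, under every alternative tried, and in P815-M Tap2 alone fell below 0. Tap2 there ranged from -0.12 to 0.14 with each library left out. The members' median ranged from 0.38 to 0.80 in P815-IFNG, from 0.29 to 0.61 in P815-M and from 0.44 to 0.63 over both lines with each library left out. Without the minimum fold, 4 members passed the adjusted p over both lines under DESeq2, 2 with DESeq2's size factors, 1 after ComBat-seq and 9 with no filter, against 0 in the design used. Between the lines in light, the fit with no term for the deep libraries gave -0.09 for H2-K1, -0.09 for H2-D1, -0.07 for Tapbp and -0.27 for Psmb9, and in the dark -0.04 for Tap2 and -0.02 for Tapbp. With each library left out, the values in light ranged from -0.07 to 0.37 for H2-K1, -0.02 to 0.47 for H2-D1 and -0.15 to 0.40 for Tapbp. In the dark they ranged from -0.07 to 0.41 for H2-K1, -0.05 to 0.52 for B2m, -0.29 to 0.53 for Tap1 and -0.05 to 0.52 for Tap2, lowest without P815-IFNG dark replicate 1. The causes were not tested.

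Counts of all called genes moved more than those of the members. For P815-IFNG light against dark (2 called), P815-M light against dark (194), both lines (149), the lines in light (82), the lines in dark (290) and the interaction (3), the fit with no term gave 0, 0, 0, 3, 2 and 0. In the same order, no filter gave 211, 429, 339, 245, 640 and 203. ComBat-seq gave 180, 303, 272, 579 and 49, with no such move in P815-M. The 10 libraries alone gave 1 in P815-IFNG, 77 over both lines and 39 for the lines in light. DESeq2 gave 58 in P815-IFNG, 293 in P815-M and 23 for the interaction, filterByExpr gave 1 in P815-IFNG and 1 for the interaction, and DESeq2's size factors gave 1 for the interaction. No minimum fold gave 351 over both lines and 441 for the lines in dark, and only the libraries compared gave 140 for the lines in light. With each library left out these counts ranged from 1 to 52, 61 to 237, 42 to 209, 29 to 161, 153 to 444 and 1 to 14. Members called then ranged from 0 to 1 in P815-IFNG light against dark and over both lines (Tap1 and Nlrc5, as given above), and stayed at 0 elsewhere. Nlrc5 missed the exact permutation threshold in the 10 libraries alone (p = 0.0667), an alternative added after the data were seen.

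The labels do not say whether the replicate numbers pair the tumors. Same-numbered tumors deviated from their group means with correlations between -0.18 and 0.08, against -0.17 to 0.14 for differently numbered ones. Pairs with a deep library were left out, although both deep libraries carry replicate number 3. These correlations showed no sign of pairing in the other libraries but cannot exclude it. As a block, the replicate number gave 62 called genes for P815-IFNG light against dark and 16 for the interaction, and 1 member, Nlrc5, was called between the lines in light (log2 fold change 1.09, adjusted p = 0.0499, edgeR) and in dark (1.03, adjusted p = 0.0444, edgeR), and 5 members passed the adjusted p alone over both lines. Low counts limit the 10 libraries, in which single members rested on as few as 45 counts. Whether these libraries were sequenced to a lower depth or had fewer reads assigned to genes was not tested.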
